A study of Homo sapiens with 6 samples.

Results

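SLC2A1, SLC2A3, HK1, HK2 and GPI carry glucose into the cell and through the first steps of glycolysis, and their transcripts were followed here in an oral squamous cell carcinoma line under hypoxia and normoxia. The 5 genes were taken by symbol from a deposited table of 21776 genes, and all 5 were present. RNA sequencing was done on 6 libraries, 3 per condition. Their labels give wild-type SCC25, a human HNSCC line grown in DMEM/F12 with 10% fetal bovine serum. Hypoxia was 12 h in a tri-gas incubator at 1% O2 with 5% CO2 and the balance N2, and normoxia was 12 h at 37 °C in 5% CO2 with air. The study's legend names SCC9 where the labels name SCC25, and the line was not identified here. The submitters' processing notes name the mouse builds GRCm38 and mm10, while the gene symbols are human, so no coordinate was taken from the counts. Nothing in the labels says that the libraries of a condition came from separate cultures, so p-values measure only the spread between these libraries, which may be technical. In a bulk culture, fewer cells expressing a gene and less RNA per cell cannot be told apart.

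Glucose enters most cells down its gradient through facilitative transporters of the SLC2A family, of which GLUT1 (SLC2A1) serves basal uptake in many tissues and GLUT3 (SLC2A3) is a high-affinity form best known in neurons. Hexokinases then trap glucose as glucose 6-phosphate: HK1 is the broadly expressed form and HK2 the inducible one, prominent in muscle and many tumours, and both can dock on the mitochondrial outer membrane through VDAC channels. GPI converts glucose 6-phosphate to fructose 6-phosphate, the last step before the pathway is committed at phosphofructokinase. Several of these genes are known targets of the hypoxia-inducible factors, which bind the core letters ACGTG or GCGTG of the hypoxia response element.

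Library totals ran from 29637189 to 37278703 reads counted on genes. As a check of the labels, 10 of 10 hypoxia response genes outside glucose metabolism were higher under hypoxia, with a median log2-fold change of 2.92. Over the 14255 genes tested, 39.2% were called higher and the median was 0.02. The 10 genes were listed with earlier results of these data known, so the check is weak. The libraries of a condition were not equal in this hypoxia response. Of these 10 genes, 8 had their highest normoxic level in normoxia replicate 3, where NDRG1 stood at 409 CPM against 163 and 140.4 in the other two (CPM, counts scaled to a TMM-adjusted library of 1000000). All 10 had their lowest hypoxic level in hypoxia replicate 1. Squamous and epithelial markers were expressed, with 6 of 9 at a mean of at least 10 CPM and CDH1 the most abundant at 333 CPM, but KRT14, a defining basal keratin, had at most 1 count in any library. The summed level of the 9 markers was 1072, 1040 and 1059 CPM under hypoxia (replicates 1 to 3) and 911, 922 and 966 CPM under normoxia, but single markers differed in direction. CDH1 had 14447, 17912 and 15624 counts under hypoxia and 6799, 5160 and 5925 under normoxia, SFN 3863, 4130 and 4016 against 7761, 6136 and 6091, and KRT6A, a keratin of activated keratinocytes, 18, 28 and 49 against 695, 537 and 356. KRT5, with 3525, 3903 and 3664 counts against 4424, 3494 and 4065, and TP63, with 2208, 2442 and 2167 against 1984, 1499 and 2440, differed less. The part of such a shift in the changes given here was not tested. KRT14 shares 10% of its 75-base windows (over its longest coding transcript in GENCODE v29) with other genes, most often KRT16.

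The promoters of 4 of the 5 genes were in a RefSeq table of GRCh38.p14 (250 bases before the start of a transcript and 50 after it), and those of SLC2A1, HK2 and GPI are shown for where they hold the core letters, and HK2 also for how often. They are written 5′ to 3′ on the strand of the gene, with ACGTG and GCGTG in capitals on either strand, where CACGT and CACGC are the same letters read on the opposite strand. SLC2A1 lies at chr1:42958819-42959118 on the minus strand, the starts of HK2 at chr2:74833877-74834176 and chr2:74834920-74835219 on the plus strand, and GPI at chr19:34364742-34365041 on the plus strand.
SLC2A1 promoter: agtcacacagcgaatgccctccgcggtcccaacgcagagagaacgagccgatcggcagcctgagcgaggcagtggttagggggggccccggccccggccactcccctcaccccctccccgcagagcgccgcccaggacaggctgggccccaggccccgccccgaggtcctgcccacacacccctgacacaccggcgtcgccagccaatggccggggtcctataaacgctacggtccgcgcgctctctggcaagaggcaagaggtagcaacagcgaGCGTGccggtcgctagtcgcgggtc
HK2 promoter at the upstream start: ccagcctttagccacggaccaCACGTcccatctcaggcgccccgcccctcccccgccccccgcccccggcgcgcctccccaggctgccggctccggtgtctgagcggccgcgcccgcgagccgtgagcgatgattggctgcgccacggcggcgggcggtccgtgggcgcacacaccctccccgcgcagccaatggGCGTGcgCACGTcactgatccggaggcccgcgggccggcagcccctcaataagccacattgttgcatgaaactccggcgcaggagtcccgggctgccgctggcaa
HK2 promoter at the downstream start: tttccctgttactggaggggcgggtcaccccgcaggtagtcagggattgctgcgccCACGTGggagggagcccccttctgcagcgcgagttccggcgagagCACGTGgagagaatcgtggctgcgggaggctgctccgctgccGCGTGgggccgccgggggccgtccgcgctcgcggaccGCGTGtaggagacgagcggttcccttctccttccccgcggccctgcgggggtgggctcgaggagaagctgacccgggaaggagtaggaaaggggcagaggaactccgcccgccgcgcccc
GPI promoter: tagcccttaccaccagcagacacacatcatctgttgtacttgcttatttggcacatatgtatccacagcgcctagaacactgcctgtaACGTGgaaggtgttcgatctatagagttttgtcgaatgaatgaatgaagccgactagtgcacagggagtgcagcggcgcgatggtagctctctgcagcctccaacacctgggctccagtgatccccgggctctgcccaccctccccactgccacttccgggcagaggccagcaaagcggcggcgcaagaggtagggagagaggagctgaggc

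Of 35116 RefSeq promoters of this length, 21.4% held ACGTG, 36.5% held GCGTG and 48.4% held either, so a match is a common feature and describes letters only. SLC2A1 held 1 GCGTG, with its first base 26 bases after the start, and no ACGTG. GPI held 1 ACGTG, 162 bases before the start. HK2 held ACGTG in both windows: at 2 positions of the upstream window, 229 and 48 bases before the start, the nearer one beside a GCGTG at 55 bases, and at 4 positions of the downstream window, where 2 palindromes CACGTG were each read on both strands. Of all promoters, 8.82% held ACGTG at 2 or more positions, counted in this way. HK1 had 7 start entries, none with ACGTG and 2 with GCGTG.

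SLC2A1, HK1, HK2 and GPI rose under hypoxia, from 1.72-fold for HK1 to 7.35-fold for HK2, and with a minimum of 10 counts per library 4 of 4 were still called higher. SLC2A3 was higher by a fitted 34.3-fold (log2-fold change 5.10, and 6.52 without normoxia replicate 3), but it passed the filter on low counts through its hypoxic libraries alone, so its call is not read against the share of all genes. Among the 14255 genes tested, edgeR's quasi-likelihood test called 39.2% higher and 38.5% lower, and the median log2-fold change was 0.02. SLC2A1, HK2 and GPI exceeded a log2-fold change of 1, as did 19.9% of the genes tested. For SLC2A1, HK1, HK2 and GPI the lowest hypoxic library lay above the highest normoxic one in CPM, as it did for 40.6% of the genes tested. The 5 genes together took 0.415% ± 0.0255 of all counts under hypoxia and 0.149% ± 0.00709 under normoxia (SD, n = 3 each), a ratio of 2.79 (exact permutation p = 0.1, the smallest that 3 libraries against 3 allow).

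**Figure D1:**
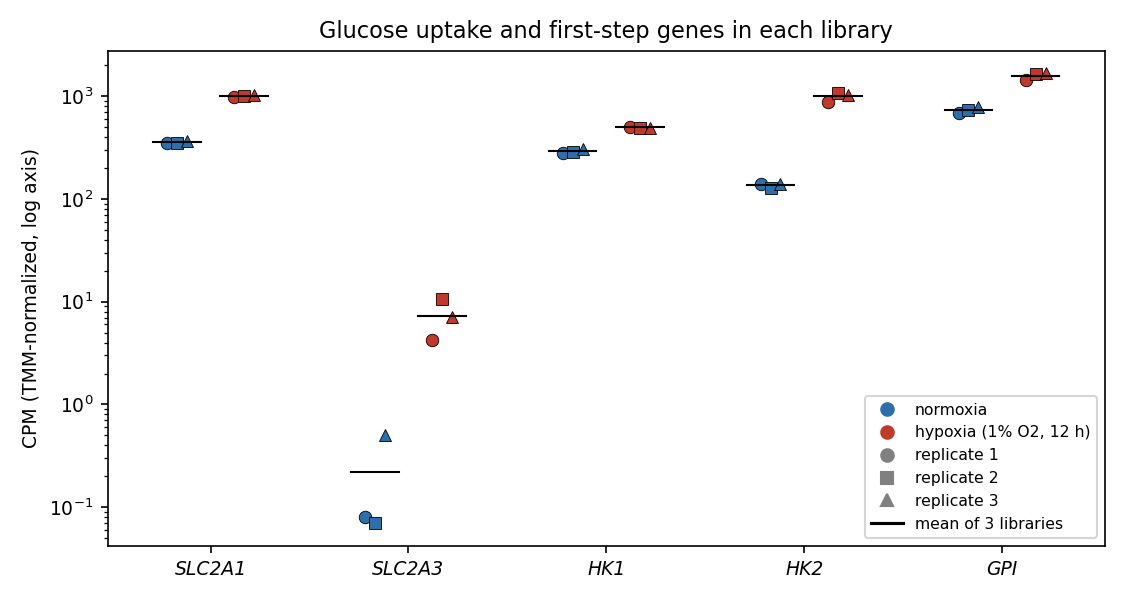
Level of each of the 5 genes in each library, as TMM-normalized CPM on a log axis, with normoxia in blue, hypoxia in red, a symbol for each replicate number and a line at the mean of 3 libraries. Hypoxia lies above normoxia without overlap for SLC2A1, HK1, HK2 and GPI, as it did for 40.6% of the genes tested. The widest scatter is that of SLC2A3, from 0.0699 to 0.507 CPM under normoxia and from 4.26 to 10.6 CPM under hypoxia. SLC2A3 passed the filter on low counts through its hypoxic libraries alone.

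SLC2A1 was the more abundant of the transporters by far. Its level was 979, 1004 and 1017 CPM under hypoxia (replicates 1 to 3) and 349, 351 and 367 CPM under normoxia. The libraries of each condition lay within a few percent of each other and well apart from the other condition. The log2-fold change was 1.49 (SE 0.050, adjusted p = 7.81e-14 from edgeR's quasi-likelihood fit), a 2.81-fold increase. Per kilobase of gene, SLC2A1 reached 300.3 ± 6.78 FPKM under hypoxia and 103 ± 3.51 FPKM under normoxia (SD, n = 3 each), which placed it at rank 168 and rank 583 of the 14255 genes tested. The noncoding transcript SLC2A1-DT, which starts beside SLC2A1 on the opposite strand and overlaps 128 of its exonic bases in GENCODE v29, was also higher, with 40, 68 and 27 counts under hypoxia and 6, 3 and 2 under normoxia (log2-fold change 3.49, SE 0.50, adjusted p = 6.35e-06 by edgeR), but it passed the filter on low counts through its hypoxic libraries alone. Its counts were 0.109% of those of SLC2A1. Whether the counting used the strand is not given in the sources used here, so reads in the overlap cannot be told apart between both genes.

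SLC2A3 was close to absent under normoxia and became measurable under hypoxia. It had 130, 396 and 228 counts in the 3 hypoxic libraries and 3, 2 and 15 counts in the 3 normoxic ones, in replicate order. No normoxic library came near the lowest hypoxic one, but 15 of the 20 normoxic counts came from normoxia replicate 3, the library with the highest level of most hypoxia response genes. The log2-fold change was 5.10 (SE 0.46, adjusted p = 1.51e-08 by edgeR), and the ratio of summed counts per TMM-adjusted library total was 35.9 with a 95% interval of 23.1 to 59.1 that covers counting error only. Without normoxia replicate 3 the log2-fold change was 6.52 and the ratio of summed counts 99.1, with an interval of 42.3 to 306. The size of this increase depended on that library, while its direction did not change when any single library was left out. Even under hypoxia SLC2A3 stood at only 1.95 ± 0.876 FPKM, at rank 9783 of the genes tested. SLC2A3 shares 13% of its 75-base windows with its paralog SLC2A14, which had 1, 0 and 3 counts under hypoxia and none under normoxia, and the log2-fold change was 5.11 with both genes summed.

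Within the SLC2A family, SLC2A1 held most of the transcript pool in both conditions. The 12 SLC2A genes summed to 326 ± 6.54 FPKM under hypoxia and 123 ± 5.19 FPKM under normoxia, a ratio of 2.65. SLC2A1 made up 92.0% ± 0.278 of this sum under hypoxia and 84.1% ± 0.746 under normoxia. SLC2A3 made up 0.593% ± 0.257 and 0.0447% ± 0.0496. Its normoxic share was 0.0171%, 0.0150% and 0.102% in replicates 1 to 3, so that mean rested mostly on normoxia replicate 3. Neither share overlapped between the conditions (exact permutation p = 0.1 for each, with 7 shares and ratios tested and an adjusted p of 0.1). The log2 ratio of SLC2A3 to SLC2A1 in FPKM was 4.10 higher under hypoxia. It was 4.99 higher without normoxia replicate 3, where the normoxic value rests on 3 and 2 counts of SLC2A3 and its size is not well measured.

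Of 12 other facilitative transporters listed, 8 could be tested, of which 5 rose, 1 fell and 2 did not pass the test, with a median log2-fold change of 0.93, beside 39.2% higher and 38.5% lower over all genes tested. SLC2A4 and SLC2A10 passed the filter on low counts through their hypoxic libraries alone, and with a minimum of 10 counts per library 3 of 6 rose and 1 fell, with a median of 0.46. SLC2A12 (GLUT12) rose from 1.29, 0.839 and 1.93 CPM under normoxia to 13.6, 13.8 and 13.2 CPM under hypoxia, in replicate order, with no overlap (log2-fold change 3.32, SE 0.19, adjusted p = 4.99e-11 by edgeR). SLC2A10 rose by a log2-fold change of 3.40 but had at most 88 counts in any library. SLC2A4 (GLUT4, the insulin-responsive transporter of muscle and fat) rose by 2.02 from at most 5 counts to at most 17, SLC2A11 rose by 1.27 and SLC2A13, a proton-coupled myo-inositol transporter, by 0.59 on the log2 scale. SLC2A8 was the one that fell, from 6.15 ± 0.0952 to 3.51 ± 0.573 CPM. SLC2A6, at 42.4 ± 3.65 CPM under hypoxia and 39.9 ± 3.62 CPM under normoxia, did not pass the test (adjusted p = 0.324 by edgeR). None of the sodium-glucose cotransporters could be tested, and SLC5A1 (SGLT1) had at most 1 count in any library.

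The hexokinases changed unequally, and HK2 moved most. HK2 stood at 883, 1083 and 1034 CPM under hypoxia (replicates 1 to 3) and at 139.9, 127 and 141 CPM under normoxia. Hypoxia replicate 1 was the lowest of the hypoxic libraries and still more than all normoxic ones. The log2-fold change was 2.88 (SE 0.073, adjusted p = 5.04e-15 from edgeR's quasi-likelihood fit), a 7.35-fold increase and the gene at rank 14 by p-value among those tested. HK2 shares 4.37% of its 75-base windows with the pseudogene HK2P1.

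HK1 rose less. It stood at 501, 495 and 495 CPM under hypoxia (replicates 1 to 3) and at 277, 289 and 304 CPM under normoxia. The hypoxic libraries were nearly level, and the highest was replicate 1, which was the lowest for the other 4 genes. The log2-fold change was 0.78 (SE 0.051, adjusted p = 2.50e-10 by edgeR), a 1.72-fold increase. None of the 75-base windows of HK1 occurred in another gene.

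HKDC1, a further hexokinase, went the opposite way. It stood at 24.2 ± 1.62 CPM under hypoxia and at 43.5 ± 0.892 CPM under normoxia (SD, n = 3 each), and its conditions did not overlap. Its log2-fold change was -0.85 (SE 0.071, adjusted p = 6.44e-09 by edgeR). ADPGK, which phosphorylates glucose with ADP in place of ATP, also fell, by 0.70 on the log2 scale. HK3 was not analysed here.

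The makeup of the hexokinase pool differed between the conditions. HK2 made up 60.9%, 66.1% and 64.9% of the summed FPKM of HK1, HK2 and HKDC1 under hypoxia (replicates 1 to 3) and 28.4%, 25.7% and 27.0% under normoxia. HK1 was the major form in all 3 normoxic libraries, at 61.1% ± 1.25, and HK2 in all 3 hypoxic ones. HKDC1 fell from 11.9% ± 0.448 to 2.14% ± 0.262. The log2 ratio of HK2 to HK1 in FPKM was 0.92 ± 0.16 under hypoxia and -1.18 ± 0.10 under normoxia, a difference of 2.09 (exact permutation p = 0.1, the smallest possible, and 0.1 adjusted over the 7 tests). The pool itself rose from 84.5 ± 3.31 to 271 ± 19.2 FPKM, a ratio of 3.20.

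**Figure D2:**
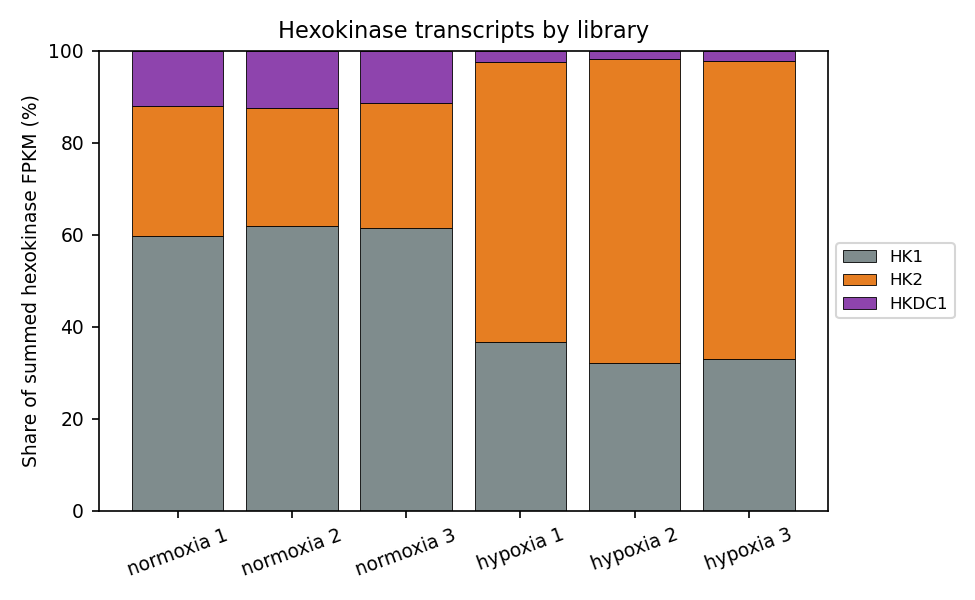
Share of each hexokinase gene in the summed FPKM of HK1, HK2 and HKDC1, in percent, as stacked bars with 1 bar per library. HK2 holds 25.7% to 28.4% of the sum in the 3 normoxic libraries and 60.9% to 66.1% in the 3 hypoxic ones.

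GPI, the enzyme after the hexokinases, rose 2.16-fold. Its level was 1453, 1626 and 1672 CPM under hypoxia (replicates 1 to 3) and 680.2, 740.2 and 780.5 CPM under normoxia. Hypoxia replicate 1 was again the lowest of its condition, and the conditions did not overlap. The log2-fold change was 1.11 (SE 0.063, adjusted p = 3.97e-11 from edgeR's quasi-likelihood fit). GPI shares 10.1% of its 75-base windows with other genes, most of them with AC092073.1, an overlapping gene model on the same strand.

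Per length, the order of the 5 genes differed between the conditions. Under normoxia the FPKM ran from SLC2A1 (103 ± 3.51) through GPI (65.3 ± 4.16), HK1 (51.6 ± 2.28) and HK2 (22.8 ± 1.67) to SLC2A3 (0.0565 ± 0.0643), with no overlap between neighbours. Under hypoxia HK2 (173 ± 19.4) stood second after SLC2A1, ahead of GPI (146 ± 10.9) and HK1 (91.4 ± 1.12). HK2 was above GPI in each of the 3 hypoxic libraries, but its lowest library and the highest of GPI both rounded to 152 FPKM. The place of GPI rested on the length behind the deposited FPKM, which was 11043 bases for GPI against 4341 bases for its longest coding transcript in GENCODE v29. With the transcript lengths, GPI came first in both conditions, at 371 ± 27.8 under hypoxia and 166 ± 10.6 reads per kilobase and 1000000 counts under normoxia. The turn from HK1 above HK2 to HK2 above HK1 held with either length.

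**Figure D3:**
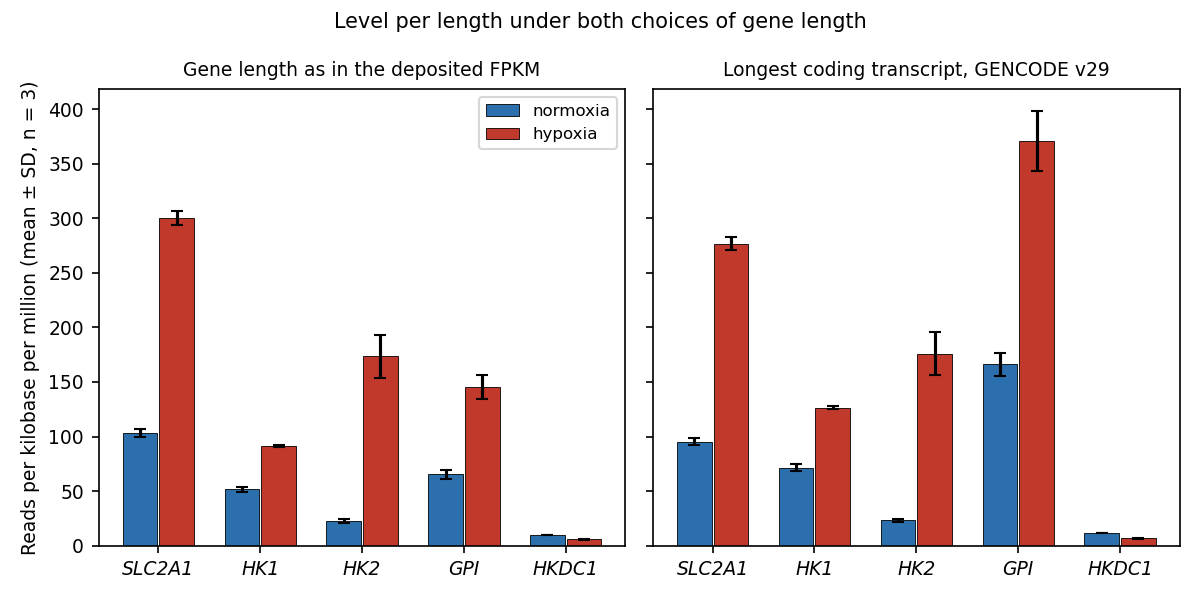
Level per length of SLC2A1, HK1, HK2, GPI and HKDC1, in reads per kilobase and 1000000 counts (mean ± SD of 3 libraries), with the gene length of the deposited FPKM on the left and the longest coding transcript of GENCODE v29 on the right. HK2 passes HK1 under hypoxia on both sides, while GPI moves from 146 to 371 under hypoxia with the change of length.

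On the log2(FPKM + 1) scale, limma called SLC2A1, HK1, HK2 and GPI higher, as it did 36.7% of the 10976 genes tested there. SLC2A3 was called too, but it reached the minimum mean of 1 FPKM through its hypoxic libraries alone and fell under it when any of them was left out. The changes on this scale were 1.53 for SLC2A1, 1.44 for SLC2A3, 0.81 for HK1, 2.87 for HK2 and 1.14 for GPI. For SLC2A3, whose FPKM lies near the pseudocount of 1, this scale understates the change, which was 3.69 with a pseudocount of 0.1.

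The libraries that stood apart moved the changes of SLC2A1, HK1, HK2 and GPI only slightly. Without hypoxia replicate 1 the log2-fold changes were 1.50 for SLC2A1, 0.77 for HK1, 2.95 for HK2, 1.16 for GPI and 5.36 for SLC2A3. Without normoxia replicate 3 they were 1.50 for SLC2A1, 0.80 for HK1, 2.89 for HK2 and 1.14 for GPI. Markers of other cells were low: 6 fibroblast markers summed to 22.1, 18.7 and 17.1 CPM under hypoxia (replicates 1 to 3) and 4.03, 3.15 and 5.64 CPM under normoxia. COL1A1 made up most of this sum, with 611, 667 and 518 counts under hypoxia and 131, 78 and 149 under normoxia. LUM had 27, 9 and 8 counts under hypoxia and 1, 1 and 2 under normoxia, and PDGFRB 24, 19 and 20 against 13, 7 and 11. COL1A2 had at most 9 counts in any library, and COL3A1 and DCN at most 4. The 3 endothelial markers summed to at most 1.54 CPM. The leukocyte markers summed to between 27.3 and 34.2 CPM in all libraries, nearly all from CD68, with PTPRC and CD3E at 2 counts or fewer. The 3 erythroid markers were not analysed here. Fibroblast and endothelial sums were higher in hypoxic libraries, as the 5 genes were, and their part in the result was not tested.

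Downstream of GPI, most glycolytic genes tested rose. Of 16 tested genes from phosphofructokinase to lactate dehydrogenase, 14 rose, 1 fell and 1 did not pass the test, with a median log2-fold change of 0.59 against 0.02 over all genes tested, of which 39.2% were called higher. PGAM2, the muscle form of phosphoglycerate mutase, is among the 14 with 26, 20 and 17 counts under hypoxia and 0, 5 and 3 under normoxia, and it passed the filter on low counts through its hypoxic libraries alone. With a minimum of 10 counts per library 13 of 15 rose and 1 fell, with a median of 0.54. ALDOC (aldolase C) rose by 2.35 and ENO2 (enolase 2) by 1.79 on the log2 scale. PGK1, which makes ATP, rose by 0.72, LDHA, which makes lactate, by 0.47, GAPDH by 0.46 and PKM by 0.16. ENO1 passed the test with a log2-fold change of 0.12 (adjusted p = 0.0428 by edgeR), but its libraries overlapped between the conditions and its adjusted p was 0.0911 with the replicate number as a block. Leaving out hypoxia replicate 1, hypoxia replicate 3 or normoxia replicate 1 lost the calls of both PKM and ENO1, so that 12 genes rose. Among the phosphofructokinases, PFKL rose by 0.81 and PFKP by 0.80, while PFKM had a log2-fold change of -0.10 and did not pass the test. LDHB, the lactate dehydrogenase subunit of oxidative tissues, fell by 0.50.

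Of 8 tested genes that draw on the same hexose phosphates, 3 rose and 5 fell, with a median log2-fold change of -0.22. PGM2, which fell by 0.17, lost its call under 3 of 11 alternatives (highest adjusted p 0.218 by edgeR). Over all genes tested 39.2% were higher and 38.5% lower, so the share that rose was near the background. The share that fell was above that of all genes, but with 8 genes and no set test this is not read as a result. H6PD, the hexose 6-phosphate dehydrogenase of the endoplasmic reticulum, rose by 1.20, MPI, which links fructose 6-phosphate with mannose 6-phosphate, by 1.17 and PGM1, on the route to glycogen and UDP-glucose, by 0.76. GFPT1 and GFPT2, which open the hexosamine pathway, fell by 0.28 and 0.86, and the glucose 6-phosphate carrier SLC37A4 fell by 0.79.

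Of 10 regulators of uptake and transporter traffic, 4 were higher, 5 lower and 1 not called, with a median log2-fold change of -0.05, which was 0.02 with a minimum of 10 counts per library. These shares were near those over all genes tested, 39.2% higher and 38.5% lower, and the genes are given for their own values. TXNIP, known to promote GLUT1 internalization, rose from 206 ± 15.1 to 501 ± 9.75 CPM (log2-fold change 1.28, SE 0.057, adjusted p = 2.17e-12 by edgeR), while its relative ARRDC4 had a log2-fold change of 0.05 and did not pass the test. MLXIPL, the glucose-responsive transcription factor ChREBP, rose by 3.48 from 30, 30 and 45 counts in the normoxic libraries, and its relative MLXIP fell by 0.54. The retromer subunits VPS26A and VPS29, which return GLUT1 to the surface, fell by 0.48 and 0.30, and their partner SNX27 rose by 0.48. The third subunit, VPS35, fell by 0.16, but its adjusted p was 0.140 by edgeR with a minimum of 10 counts per library. TBC1D1 rose by 0.21, but its adjusted p was 0.0648 by edgeR without normoxia replicate 3. All 3 VDAC channels fell, VDAC1 by 0.32, VDAC2 by 0.26 and VDAC3 by 0.81 on the log2 scale.

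**Figure D4:**
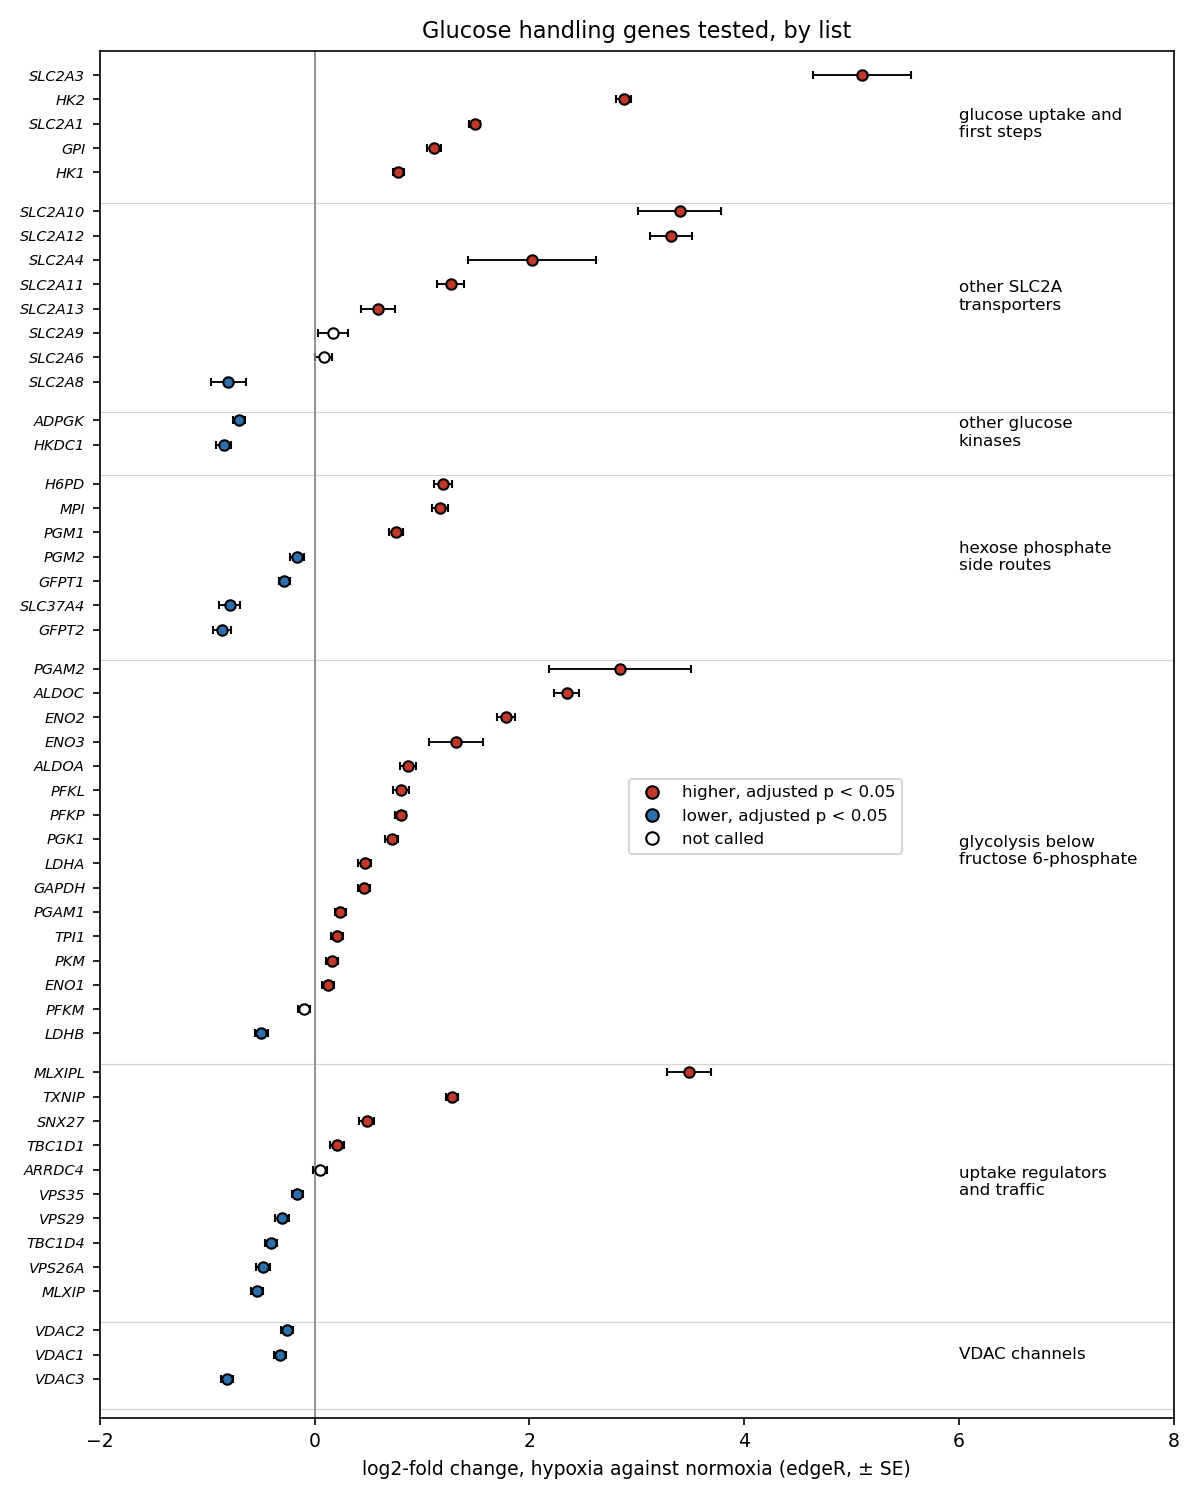
Log2-fold change of the tested genes named by list, hypoxia against normoxia, with its SE from edgeR, grouped and coloured by call at an adjusted p under 0.05 (red higher, blue lower, white not called). At the top, SLC2A1, HK1, HK2 and GPI lie right of 0, from 0.78 for HK1 to 2.88 for HK2. SLC2A3, at 5.10, passed the filter on low counts through its hypoxic libraries alone. The 3 VDAC channels at the bottom lie left of 0. Over all genes tested 39.2% were called higher and 38.5% lower.

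The genes whose profile over the 6 libraries lay closest to each of the 5 were sought among 9612 tested genes with a mean log2 CPM of at least 3, by the Euclidean distance between centred log2 CPM. STC2 (0.0688), EGLN1 (0.0852), which encodes the oxygen-sensing prolyl hydroxylase PHD2, and SLC22A23 (0.0943) were closest to SLC2A1. CBLC (0.0326), PLEKHM1 (0.0432) and the phosphofructokinase PFKP (0.0482) were closest to HK1. PADI2 (0.124), ETS2 (0.167) and INSIG2 (0.179) were closest to HK2, and SH3BGRL (0.0893), IRF5 (0.0934) and PLAAT3 (0.0957) to GPI. SLC2A3 had no neighbour as near, with NDRG1 (1.18) the closest and PIK3IP1 at 1.48. With 6 libraries in 2 conditions, this distance mostly measures how alike the fold changes were. In the annotation deposited with the counts, SLC2A1 and HK2 carried the term response to hypoxia, with 146 genes of the table, and SLC2A1, HK1 and HK2 the HIF-1 signaling pathway, with 96.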

How the data were processed

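RNA-seq was available for 6 libraries, 3 per condition, grouped by their labels. The authors deposited whole-number counts for 21776 genes and FPKM for the same genes. The FPKM could be recomputed, within 0.01%, from the counts, 1 gene length and the library total for 21775 genes. The aligner, counter, annotation and strandedness are not given in the sources used here.

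Counts were tested in R 4.3.3 with edgeR 4.0.16 (glmQLFit and glmQLFTest, TMM, filterByExpr, condition as the only term) and Benjamini-Hochberg adjustment at 0.05, over 14255 genes. SE is the log2-fold change divided by the square root of F. Log2 CPM used a prior count of 2. Log2(FPKM + 1) was tested with limma 3.58.1 where the mean FPKM was 1 or more. DESeq2 1.42.0 was an alternative. Exact permutation tests were two-sided. The scripts were tested on simulated data. Alternatives were other size factors, filters, thresholds, pseudocounts and gene lengths, summed paralogs, the replicate block and each library left out.

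The 5 genes and all lists were chosen with earlier results of these data known. Genes named are the 5, those of 9 lists (77 genes), overlapping or near-identical genes, markers of cell types, and the closest profiles per gene, up to 3. Some genes of these lists are not reported here. Replicates differed by more than sampling noise (chi-square per gene 4.90 to 10.8), so each library counted once. Intervals cover counting error only.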

Additional observations from a re-analysis of the deposited data

How the results depend on the processing

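Across 12 alternatives at most per result, the changes of the 5 genes, their shares and their ratios kept their direction. SLC2A1, HK1, HK2 and GPI also kept their calls. The call of SLC2A3 is not counted here, since it passed the filter on low counts through its hypoxic libraries alone. The median log2-fold change of the 10 regulators turned from -0.05 to 0.02 with a minimum of 10 counts per library. That filter shifted the median over the genes tested in both by 0.08, so the turn is not read as a change of the regulators. SLC2A3 was left out by a minimum of 10 counts in every library, since it had 2 counts in normoxia replicate 2. Leaving out each library in turn gave log2-fold changes of 1.46 to 1.50 for SLC2A1, 4.63 to 6.52 for SLC2A3, 0.73 to 0.80 for HK1, 2.81 to 2.95 for HK2 and 1.04 to 1.16 for GPI. With HK1, HK2 and HKDC1 summed, which is among the alternatives of HK1 and HK2, the log2-fold change was 1.70. That sum describes the pool and does not test HK1 or HK2 alone. The highest adjusted p among the alternatives for SLC2A1, HK1, HK2 and GPI was 2.11e-08 on counts, for HK1 by edgeR. On log2(FPKM + 1) it was 5.51e-05, for GPI by limma without a filter on low FPKM. For SLC2A3 the values were 1.02e-06 by edgeR and 0.00186 by limma, and they are not read as support.

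The number of genes called fell to 2840 higher and 1498 lower when a log2-fold change beyond 1 was added. With at least 10 counts in every library, 3 other facilitative transporters were higher in place of 5. Glycolytic genes below GPI that fell numbered 2 without a filter on low counts, and 1 to 2 when each library was left out, with 2 without normoxia replicate 3. Those that rose numbered 12 to 14 when each library was left out and 13 with the replicate block, where ENO1 lost its call. The calls lost in the lists were those of ENO1 (under 6 of 11 alternatives, highest adjusted p 0.208 by edgeR), PKM (3), PGM2 (3), TBC1D1 (1) and VPS35 (1). Hexose phosphate genes that fell then numbered 4 in place of 5, and regulators 3 higher in place of 4 or 4 lower in place of 5. The share of SLC2A1 in its family differed by 6.35 percentage points in counts, against 7.91 in FPKM. That of HKDC1 differed by -7.67 in counts and by -8.77 with the transcript lengths, the latter chosen after seeing the data, against -9.75. The causes of these moves were not tested, apart from the other lengths and the fewer transporters tested under the stricter filter. That filter left 6 of 8 transporters, but all 10 regulators and all 8 hexose phosphate genes.

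Same-numbered libraries of both conditions did not deviate together over the genes tested (correlations 0.018, -0.069 and 0.0012). These correlations cannot tell whether such libraries shared a culture or a batch, which the labels do not say. With the replicate number as a block, the log2-fold changes were 1.49, 5.05, 0.78, 2.87 and 1.11 for SLC2A1, SLC2A3, HK1, HK2 and GPI, and 5456 genes were higher and 5419 lower. None of the hypoxic libraries correlated best with the normoxic library of its number, and of the normoxic libraries only replicate 1 did so with its hypoxic one. The median over the genes tested in both shifted by -0.04 without a filter on low counts and by 0.08 with the minimum of 10 counts per library. At this depth, genes with 3 counts or fewer in a condition have no measurable level there.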

Other observations

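ALDOA, the aldolase of muscle and most dividing cells, stood at 32.3 ± 0.149 FPKM under hypoxia and 17.2 ± 1.87 FPKM under normoxia (SD, n = 3 each), below its relative ALDOC at 168 ± 7.72 and 32.1 ± 8.65 FPKM. The neighbouring enzymes of the pathway were far higher, with TPI1 at 653 ± 13.7 and GAPDH at 3953 ± 143 FPKM under hypoxia. G6PC3, a broadly expressed glucose 6-phosphatase, had at most 2 counts in any library. In GENCODE v29, 87.9% of the 75-base windows of ALDOA also occur in the gene model AC093512.2, and 9.38% of those of ALDOC and none of those of G6PC3 occur in another gene. How reads that match several genes were counted is not given in the sources used here, so the level of ALDOA is uncertain and its order against ALDOC should not be read as one of expression. The part of such reads in these levels was not tested.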
